A study of Mus musculus with 2 samples.

Results

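Large boundary-free domains are long stretches of chromosome in which the authors' Hi-C map of mature mouse olfactory sensory neurons (OSNs) holds no called boundary. A domain was taken as the interval between the midpoints of 2 adjacent boundaries on 1 autosome. It was counted as large where the midpoints lay 700 kb or more apart and the interval held at most 50 kb of undetermined bases in the GRCm38 reference. By this rule 339 of 7555 autosomal intervals within the limit on undetermined bases were large domains, 4.49% by number (95% exact Clopper-Pearson interval 4.03 to 4.98%). They covered 318.95 Mb, or 13.3% of the determined autosomal bases. The series' list gave 8038 intervals between adjacent boundaries in all, chromosome X and gap-rich intervals included. The other 7216 autosomal intervals, and the 2681 of them that were 300 to 700 kb long, served for comparison.

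Per the labels, the cells were mature OSNs of the olfactory epithelium, FACS-sorted from adult OMP-GFP mice, in which GFP is made from the gene of the olfactory marker protein, on the 129P2/OlaHsd strain and of mixed sex. From the labels, 2 biological replicates of a single untreated group, from 3000000 and 1500000 cells, were fixed in 1% formaldehyde, cut with DpnII and made into in situ Hi-C libraries, which record which DNA ends were near one another in the nucleus. The authors pooled both into 1 contact map and called 8058 boundaries of 5 kb on it, each with a class, Strong or Weak, and a strength score without a stated scale. Each domain therefore has 1 value with no spread between replicates, depth is unknown, and the labelled cell type could not be checked against its markers, because a boundary list holds no expression values.

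A boundary is a place across which contacts are depleted, and the stretch between neighbouring boundaries is a contact domain. Many domains are thought to form as cohesin extrudes a loop of chromatin until it meets CTCF, a zinc finger protein that stalls it when its motif points toward the oncoming loop. Active promoters also often coincide with boundaries, whereas gene deserts and the introns of very long genes offer few of either. In OSNs the olfactory receptor genes lie in arrays of duplicated genes, and each neuron expresses a single one of them from an otherwise silent repertoire.

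The CTCF motif was set out first because 2 large domains held many copies of it. That no called boundary lay between the copies follows from the rule that chose the domains. Matches to the CTCF core consensus were exact, covered 14 bases and were searched on both strands. A match was present in 182 large domains (53.7%), against 72.3% of the 2871 windows of 855 kb, their median length, that tile the autosomes. Only 2 large domains held 10 or more matches. The first, chr14:52352501-54037500, held the variable segments of the T cell receptor alpha and delta chains and 24 matches, of which 23 lay on the plus strand. The second, chr5:93302501-95972500, held an array of 28 coding genes and 23 matches, of which 21 lay on the minus strand. The matches were copies of few sequences, 9 different ones of 30 bases on chromosome 14 and 6 on chromosome 5. Some of the most repeated are given 5′ to 3′ along the strand of the motif, with the core in capitals and 8 bases on either side. Further T cell receptor sequences with 3 copies are left out.
T cell receptor array, 5 copies: aagggaaaCCAGCAGAGGGCGCtgcccctt
T cell receptor array, 3 copies: gctcctgtCCACCAGGGGGCGCagatgcct
T cell receptor array, another 3 copies: gtttcagtCCACTAGGGGGCACtgcagggt
Chromosome 5 array, 11 copies: cctggtttCCAGTAGGGGGCAGcactgaca
Chromosome 5 array, 5 copies: cctgttggCCAGTAGAGGGCAGcacagaca
Chromosome 5 array, 3 copies: cccagtttCCAGTAGGGGGCAGcactgaca

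The first copies of the T cell receptor sequences lay on the plus strand at chr14:52844365-52844394, chr14:52821783-52821812 and chr14:52990142-52990171, each outside annotated genes. On chromosome 5 the first copies lay at chr5:93684830-93684859 (plus strand), chr5:94236254-94236283 and chr5:94746544-94746573 (both minus strand), also outside annotated genes. Gaps between successive copies of the T cell receptor sequences shown were unequal. The 5 copies of the first sequence stood 85.2, 225.8, 85.1 and 297.5 kb apart, the 3 copies of the second 311 and 384 kb and those of the third 311 and 382 kb. The domain held 113 of the 115 variable segments annotated on chromosome 14, all on the plus strand, and 7 olfactory receptor genes, and was flanked by Strong boundaries of 1.86 and 0.750. A match in the reference is a description of its letters, not of a bound site.

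The large domains had a median length of 855 kb (quartiles 760 and 992.5 kb) and reached 3920 kb. The domains were chosen by their spacing, the same values, so these lengths only describe them. Of the 339, 81 were 1 Mb or longer, 13 were 1.5 Mb or longer and 6 were 2 Mb or longer. At the limit itself, 11 domains measured 700 kb and 8 measured 705 kb, and 7 intervals of 695 kb and 13 of 690 kb fell just short. The 700 kb domains had a median GC content of 38.7% and a median flank mean of 1.09, and the 695 kb intervals 39.9% and 0.517. These are too few intervals to show a trend. Every autosome held some, between 32 on chromosome 7 and 4 on chromosome 19. They took up 25.3% of the interval length on chromosome 7 and 20.3% on chromosome 14, but 6.09% on chromosome 11. In 27 places large domains followed each other directly, 25 times as pairs and 2 times as runs of 3, with 56 domains in such runs. The longer run of 3, chr13:26062501-28957500, spanned 2895 kb and held the prolactin family array and Sox4. The other, chr6:104372501-106812500, spanned 2440 kb over the neighbouring contactin genes Cntn6 and Cntn4, which encode cell adhesion proteins of axons.

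Large domains were poorer in GC and richer in repeats than shorter intervals. Their GC content had a median of 39.1% (95% interval of the median 38.8 to 39.4%, range 35.1 to 49.8%), against 42.6% in other intervals (42.5 to 42.8%) and 41.1% in those of 300 to 700 kb. These intervals of medians cover counting over intervals of 1 map only. The median was lower in large domains on 19 of 19 autosomes, by 1.16 to 5.80 percentage points. GC content under 38% was found in 110 large domains (32.4%) and in 12.5% of the others. The CpG dinucleotide, the site of DNA methylation, stood at a median of 0.154 of the count expected from base composition in large domains and 0.197 in others, and was lower on 19 of 19 autosomes. Soft-masked bases, those the reference marks as interspersed or simple repeats, made up a median of 35.8% in large domains and 30.6% in others, with a higher median on 18 of 19 autosomes. Sites for DpnII, the enzyme of the library, numbered a median of 2.48 per kb in large domains and 2.46 in others. The median was higher in large domains on 14 of 19 autosomes and lower on 5. Cutting sites were thus not scarcer in the large domains as a set. In those with 50% or more of their length inside 1 coding gene the median was lower, at 2.39 per kb.

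**Figure D1:**
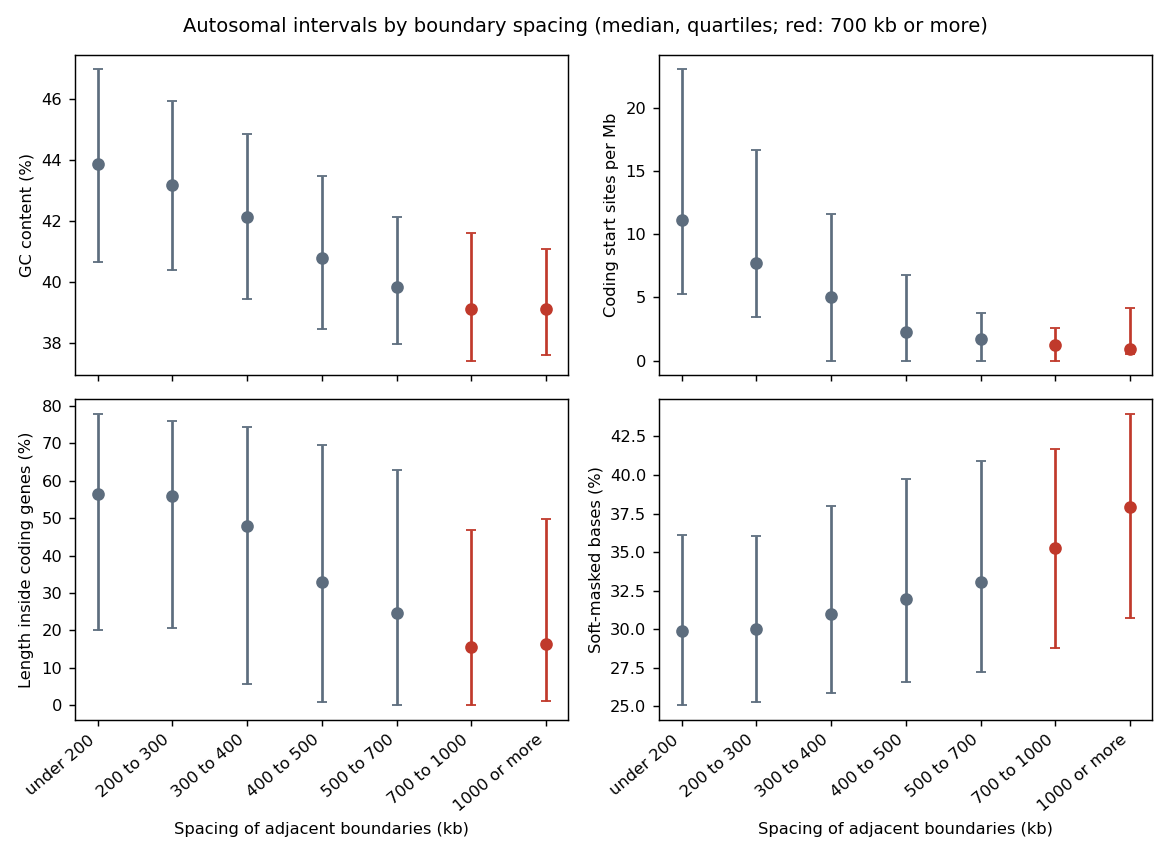
Median (points) and quartiles (bars) of GC content, coding start sites per Mb, share of length inside coding genes and soft-masked share of the 7555 autosomal intervals, by spacing of the boundaries in kb. GC content declines from 43.9% under 200 kb to 39.1% in both classes of large domains (red), and the share inside coding genes from 56.5% to 16.4% at 1000 kb or more.

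The plots by spacing show that these differences changed step by step with length and did not begin at 700 kb. Median GC content was 43.9% in intervals under 200 kb, 42.1% at 300 to 400 kb, 39.9% at 500 to 700 kb and 39.1% in both groups of large domains. Across all 7555 intervals, length had a Spearman's rho of -0.307 with GC content and -0.331 with the density of coding start sites. Among the 339 large domains the same rho values were -0.031 and -0.035. Neighbouring intervals share boundaries and base composition, so these coefficients are descriptions.

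Large domains were poor in protein-coding genes. The density of coding transcription start sites (TSSs) had a median of 1.16 per Mb in large domains, against 6.25 per Mb in other intervals and 2.82 per Mb in those of 300 to 700 kb, and it was lower on 19 of 19 autosomes. A median of 16.4% of the length of large domains lay inside coding genes, against 50.8% in others. Pooled over their length, large domains held 3.82 coding TSSs per Mb and other intervals 9.32, but those of 500 to 700 kb also held 3.82. The 14 domains with 3 or more chemosensory receptor genes alone held 22.9 per Mb. Long intergenic RNA genes were less depleted when pooled, at 1.80 per Mb in large domains and 2.23 per Mb in others. Pseudogenes were denser when pooled, at 5.93 per Mb against 4.43, with 21.2 per Mb in the receptor domains. Their median density per interval went the other way, at 2.74 per Mb in large domains and 3.09 per Mb in others. No coding TSS lay in 110 large domains (32.4%), against 26.6% of other intervals and 26.9% of all. Exactly 1 coding TSS lay in 113 (33.3%), against 23.9% of others. Of intervals of 300 to 700 kb, 31.8% lacked one, a difference of 0.669 percentage points. Against intervals of 500 to 700 kb, of which 37.9% lacked one, the direction turned, and with the limit set at 1000 kb it turned as well, to 24.7% of large domains and 26.9% of shorter intervals.

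By gene content the domains fell into 5 classes. The largest class, of 162, held few coding genes. A further 80 overlapped no coding gene, 63 had 50% or more of their length inside 1 coding gene, 20 held 10 or more coding TSSs, and 14 held 3 or more chemosensory receptor genes. Immunoglobulin variable segments have annotation types of their own and were not counted as coding genes. The 80 therefore include chr12:114217501-115152500 and chr6:67612501-68402500, which held 46 and 18 such segments. The receptor class made up 4.13% of large domains (95% exact interval 2.28 to 6.83%) and 1.46% of other intervals (1.19 to 1.76%), with 2.25% of those of 500 to 700 kb. The class with 1 long gene made up 18.6% of large domains, 24.6% of intervals of 500 to 700 kb and 25.8% of all others. Both rules depend on length, since a longer interval has room for more receptor genes and needs a longer gene to reach 50%, so these shares do not compare like with like.

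Duplicated sequence was more abundant in large domains than in other intervals. It was measured as the share of sampled 50-base words that occur more than once in the reference on either strand, a measure added after the data were seen. The median was 9.99% in large domains and 6.50% in others. More than 10% was found in 168 large domains (49.6%), against 29.8% of other intervals and 30.7% of all, and more than 30% in 30 large domains (8.85%) and 1.11% of others. Of the 30, 12 were in the class with 10 or more TSSs, 12 held few genes, 5 were in the receptor class and 1 had no coding gene. The highest value was 83.8% in large domains and 58.2% in others. The median changed little with length near the limit, at 9.07% in intervals of 500 to 700 kb, 9.96% in large domains under 1000 kb and 10.03% in longer ones, and among the 339 domains length and repeated share had a Spearman's rho of 0.0516. Pooled over length, the repeated share was 49.7% in the class with 10 or more TSSs and 46.1% in the receptor class, but 13.7% in domains with few genes, 12.0% in those with none and 7.46% in those with 1 long gene. The part of repeated sequence in the missing boundary calls was not tested.

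**Figure D2:**
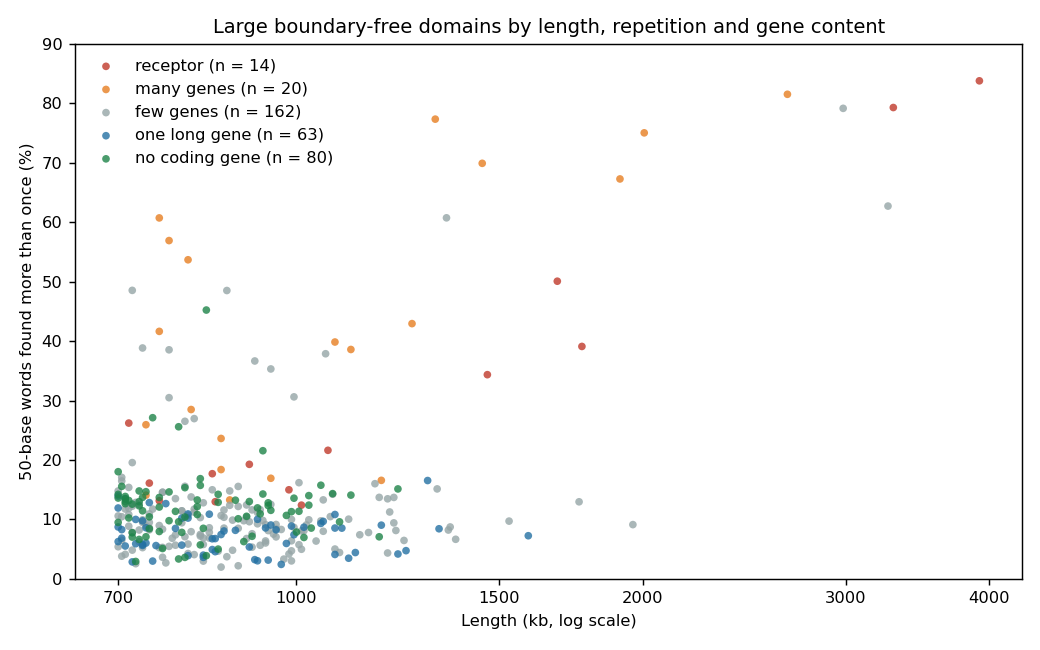
Length in kb (log scale) and share of 50-base words found more than once in the reference for each of the 339 large domains, coloured by class of gene content. Most points lie under 20%, and 8 of the 10 longest domains lie over 30%, up to 83.8%.

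The 10 longest domains show both kinds. Of these, 8 had over 30% repeated words, and in none did a single coding gene cover more than 3.43% of the length. The longest, chr7:19967501-23887500 (3920 kb), held 98 coding TSSs, 60 of them type 1 vomeronasal receptors, the pheromone receptors of the Vmn1r family. Nlrp9b covered most of it among coding genes, its repeated share was 83.8%, and its flanks were Strong boundaries of 0.788 and 2.41. Next came chr7:6947501-10247500 (3300 kb), with 24 type 2 vomeronasal receptors and Gm45844 as the gene with the most cover. It shared a Strong boundary of 0.763 with the ninth longest, chr7:10247501-12017500 (1770 kb), which held 11 type 1 vomeronasal receptors, among them Vmn1r68, and 8 Zscan zinc finger genes. Together this pair spanned 5070 kb with 1 boundary inside.

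On chromosome 12 a pair of long domains held almost no coding genes yet much duplicated sequence. The first, chr12:17832501-21097500 (3265 kb), held 3 coding TSSs, with Asap2, which encodes a GTPase-activating protein, covering the most. Its repeated share was 62.7% and it held 81 pseudogenes. The second, chr12:21467501-24452500 (2985 kb), held 2 coding TSSs, with 9030624G23Rik covering the most, and a repeated share of 79.2%. Both had a GC content of about 45%, 44.8% in the first and 44.7% in the second, above the median of other intervals. The chromosome 5 array, with Gm16427 covering the most of it, measured 2670 kb and 81.5% repeated words. On chr7:31542501-33547500 (2005 kb) all 19 coding TSSs were secretoglobin genes, a family that includes the androgen-binding proteins of mouse saliva and tears, with Scgb2b15 covering the most. Its flanks were Weak boundaries of 0.205 and 0.254. On chr13:65127501-67037500 (1910 kb, 67.3% repeated), Ptdss1, a phosphatidylserine synthase gene, covered the most.

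The remaining 2 of the 10 longest were gene deserts of mostly unique sequence. The interval chr10:15767501-17727500 (1960 kb) held the TSS of Cited2 alone, a transcriptional coregulator gene of 2.46 kb. That TSS lay 4.28 kb from the Strong boundary of 1.34 at one end, which left the rest of the domain without a coding gene, and 9.12% of its words were repeated. The interval chr7:60757501-62517500 (1760 kb, 13.0% repeated) held 4 coding genes, Magel2, Ndn, Mkrn3 and Peg12, all known to be imprinted and expressed from the paternal copy, and 20 microRNA genes. Its flanks were Weak boundaries of 0.308 and 0.245.

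A neighbouring part of this region of chromosome 7 also lay in a large domain, which was noticed after the values were seen. The interval chr7:59182501-60052500 (870 kb, 48.5% repeated) held the TSSs of Ube3a and Snurf and 210 of the 1442 autosomal snoRNA genes, 17 of them named Snord116. It held 50 kb of undetermined bases, the limit of the rule. Of all autosomal snoRNA genes, 357 lay in large domains (24.8%), and 210 of these 357 lay in the domain of Ube3a. The domain with the next highest count held 11. Of coding genes 5.85% lay in large domains, which covered 13.3% of the determined autosomal bases. The share of snoRNA genes thus rests mostly on the array around Ube3a and does not show a general excess of such genes.

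The receptor class comprised 14 domains with 231 olfactory receptor, 81 type 1 and 42 type 2 vomeronasal receptor genes. Not all were arrays of receptors. The domain chr14:51337501-52052500 (715 kb) held 1 olfactory and 2 type 2 vomeronasal receptors among 22 coding TSSs. Olfactory receptors led on chromosome 2 with 28, 44, 34 and 25 genes in 4 domains, on chromosome 7 with 24 and 34, and on chromosome 9 with 34. The domain with 44, chr2:85572501-86332500, was 760 kb long and held no other coding TSS. It lay between a Strong boundary of 1.55 and a Weak one of 0.389. The domain with 28, chr2:36287501-37352500 (1065 kb), lay between Strong boundaries of 1.49 and 3.35. The arrays on chr9:38517501-39502500 (985 kb) and chr2:86557501-87407500 (850 kb) had Weak boundaries at both ends, of 0.325 and 0.320 and of 0.270 and 0.431. On chr17:20017501-21027500 (1010 kb), 10 type 1 and 7 type 2 vomeronasal receptors lay together. On chr6:122902501-124367500 (1465 kb), 9 type 2 receptors shared a domain with 9 C-type lectin genes. These arrays were not equally duplicated at the scale of 50 bases. The olfactory receptor domains on chromosomes 2, 7 and 9 had 13.0 to 21.6% repeated words, but the T cell receptor domain with 7 olfactory receptors had 50.1%. The 3 vomeronasal domains of chromosome 7 had 39.1 to 83.8%, whereas the mixed one of chromosome 17 had 12.4%, the lowest of the class.

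Of the autosomal coding genes of each family, 39.4% of type 1 vomeronasal receptors (82 of 208), 34.7% of type 2 (42 of 121) and 20.7% of olfactory receptors (233 of 1128) had their TSS in a large domain, against 5.85% of all 20807 autosomal coding genes. The trace amine receptors, a small family of amine detectors in the nose, had 0 of 15. Genes of 1 family lie side by side, so such counts are few independent places rather than many.

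Other arrays of immune and reproductive genes filled large domains as well, and these were chosen after their values were seen. Of immunoglobulin variable genes, 101 of 218 lay in large domains (46.3%), among them 45 of the 113 named Ighv, of the heavy chain, and 55 of the 100 named Igkv, of the kappa light chain. The heavy chain domain, chr12:114217501-115152500 (935 kb), held these 45 and 1 segment of another annotation type. Of the 46, 45 were on the minus strand, with 6 CTCF core matches, all on the minus strand as well. The kappa light chain domains, chr6:67612501-68402500 and chr6:69782501-70777500, held 18 and 38 segments, 1 of them without an Igkv name, and no match. On chr13:26812501-27997500 (1185 kb) lay 21 prolactin family genes, hormones of the pituitary and placenta. On chr6:132627501-133487500 (860 kb) lay 18 bitter taste receptor genes, on chr19:10997501-11737500 (740 kb) 17 Ms4a genes, and on chr7:18137501-18877500 (740 kb) 11 pregnancy-specific glycoprotein genes. The 8 Cyp2j cytochrome P450 genes of chr4:96032501-96737500 were the whole of that list's count, 8 of 100.

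The 63 domains with 50% or more of their length inside 1 coding gene named 62 genes, since 2 adjacent domains lay in Cntn4. These genes were 382 to 2271 kb long, with a median of 823 kb. The TSS lay inside the domain in 34 cases and outside it in 29, and it lay within 20 kb of a boundary in 12. The longest of these domains was that of Ptprd, a receptor phosphatase of synapse formation, which covered 71.5% of 1590 kb between Weak boundaries of 0.210 and 0.260. Its TSS lay outside, 15.5 kb from a Strong boundary of 0.631. Thsd7b followed with 1330 kb, then Sntg1, a syntrophin gene, with 1300 kb, and Cacna2d3, a calcium channel subunit gene, with 1245 kb. Rbms3, an RNA-binding protein gene, covered 86.3% of 1225 kb, and its TSS lay 2.59 kb from the Weak boundary of 0.495 at the end.

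**Figure D3:**
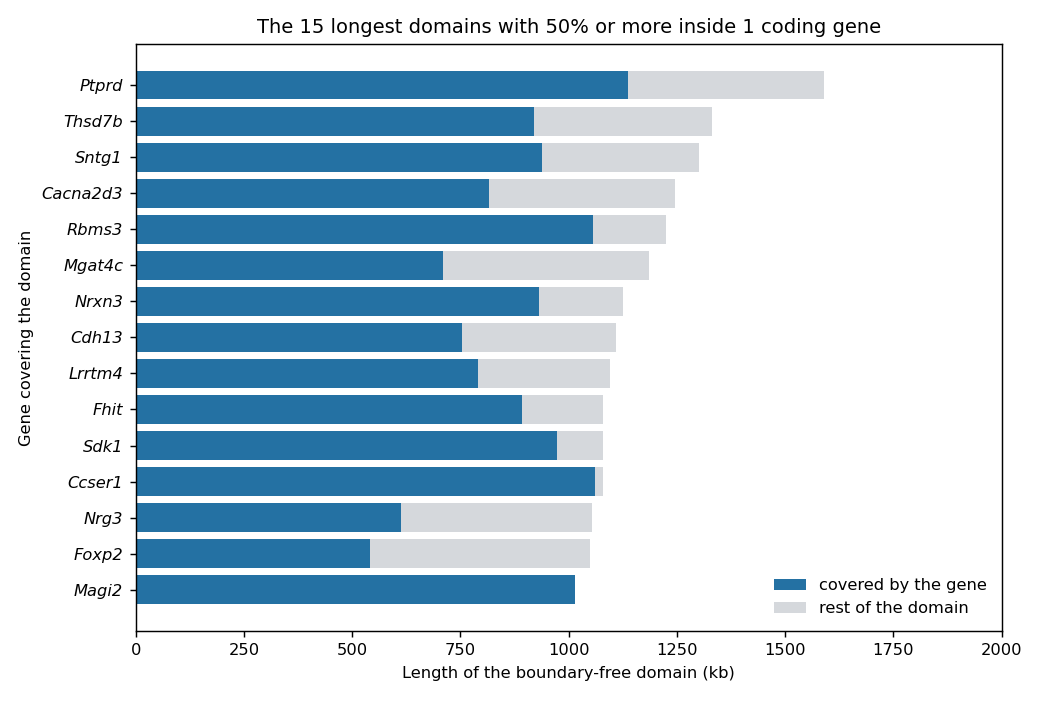
Length in kb of the 15 longest domains with 50% or more of their length inside 1 coding gene, split into the part covered by that gene (blue) and the rest (grey). Ptprd leads with 1590 kb, and Magi2 alone covers its whole domain, of 1015 kb.

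The next of these domains were those of the glycosyltransferase gene Mgat4c (1185 kb), the presynaptic receptor gene Nrxn3 (1125 kb), the cadherin gene Cdh13 (1110 kb) and the postsynaptic adhesion gene Lrrtm4 (1095 kb). Fhit, Sdk1 and Ccser1 each lay over a domain of 1080 kb. Nrg3, a neuregulin gene, followed with 1055 kb, Foxp2, a forkhead transcription factor gene, with 1050 kb and Magi2, a synaptic scaffold gene, with 1015 kb. In 24 of the 63 cases no boundary lay anywhere in the gene, among them Sntg1, Rbms3, Lrrtm4, Sdk1 and Foxp2. In 5 cases the domain lay wholly inside its gene, so that both of its flanking boundaries lay in the gene as well. Magi2 was one, and the domain before it, which holds its TSS, was large as well (1055 kb), with a Weak boundary of 0.402 between them. The boundaries of these domains were low in strength, with a median of the mean of both flanks of 0.487, against 0.643 in other intervals. Coding genes of 500 kb or more had some part in a large domain in 67 of 218 cases (30.7%), and those of all lengths in 6.28%. A longer gene spans more sequence and so meets a domain more readily, so these shares do not compare like with like. Counted by the TSS alone, the shares were 15.1% (33 of 218) and 5.85%.

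The 80 domains without a coding gene, immunoglobulin arrays included, had a median GC content of 37.7%. Their flanks were the weakest of the 5 classes, with a median of both flanks of 0.426. The longest were named after their values were seen. The first, chr1:113352501-114577500 (1225 kb), lay between Dsel, 1488 kb away, and Cntnap5a, 1107 kb away, with Weak boundaries of 0.268 and 0.287. In contrast, chr4:55542501-56722500 (1180 kb) began 10.0 kb from Klf4, a pluripotency and epithelial transcription factor gene, and ended 17.5 kb from Actl7b, with Strong boundaries of 0.508 and 1.62. The interval chr8:100812501-101902500 (1090 kb) lay between the cadherin genes Cdh8 and Cdh11, which had TSSs in large domains of their own.

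Among the 113 domains with exactly 1 coding TSS, the gene was mostly long. Its median length was 154 kb, against 18.2 kb for coding genes with the TSS outside large domains. This did not hold for large domains as a set. All 1217 coding genes with the TSS in one had a median length of 8.95 kb. In 33 of the 113 domains the single gene was under 20 kb long. The TSS lay a median of 150 kb from the nearer flank, and within 100 kb of a flank in 46 (40.7%), a zone that makes up 21.8% of the length of these domains. After Cited2, the longest were those of Ins1, an insulin gene (1530 kb), Epha4, an ephrin receptor gene (1375 kb), Slitrk1, a synaptic adhesion gene (1360 kb), and Gria1, an AMPA receptor subunit gene (1355 kb). The TSS of Epha4 lay 7.41 kb from the Strong boundary of 0.781, whereas that of Slitrk1, a gene of 5.36 kb, lay 432 kb from the nearer one. Nr2f2 (930 kb), Id2 (765 kb) and Efna5 (940 kb) resembled Epha4, with the TSS 5.77, 4.64 and 1.18 kb from a flank. Apart from Cited2, Epha4 and Efna5, these genes were chosen after their values were seen.

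Gene lists written for the cell type and its development differed in how often they fell in large domains. Of axon guidance and olfactory adhesion genes, 10 of 33 had the TSS in one (30.3%, 95% exact interval 15.6 to 48.7%), against 5.85% of all coding genes. They were led by Epha4 (1375 kb) and by Efna5 and Epha5 (940 kb each), the last 2 an ephrin ligand and a receptor that guide axons by repulsion. Developmental transcription factors had 13 of 70 (18.6%, 10.3 to 29.7%), led by Tfap2d (1075 kb), Foxp2 (1050 kb) and Pou3f3 (1010 kb). Cadherins had 6 of 33 (18.2%, 6.98 to 35.5%), led by Cdh13 (1110 kb), Cdh6 (840 kb) and Pcdh17 (815 kb). Synaptic adhesion and very long neuronal genes had 9 of 69 (13.0%, 6.14 to 23.3%), with Lrrtm4 and Magi2 in the longest domains. With any part of the gene counted, the last list had 25 of 69 (36.2%). Both shares of this list were near those of long genes in general. Of all coding genes of 500 kb or more, 15.1% had the TSS in a large domain and 30.7% any part. Glutamate receptor genes had 5 of 26 and GABA receptor genes 6 of 16, genes that lie in clusters.

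**Figure D4:**
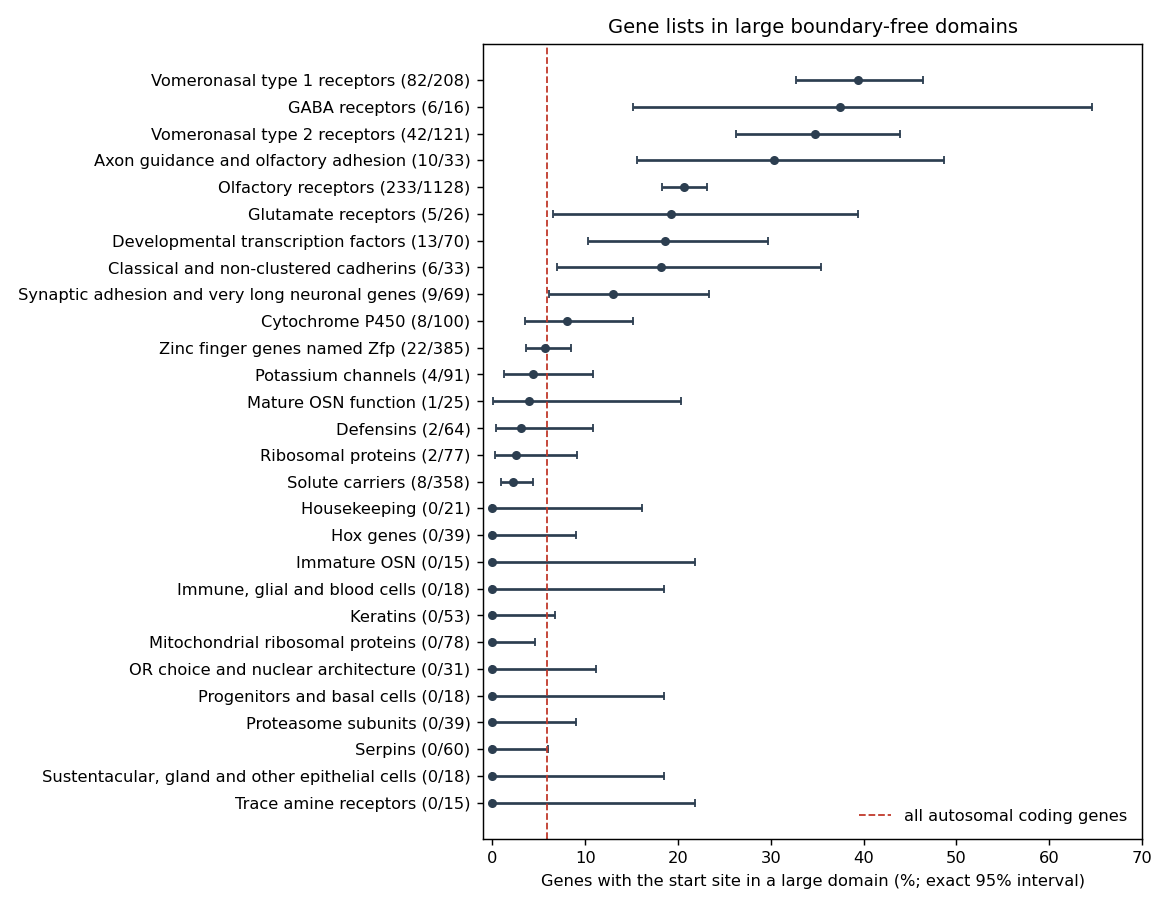
Share of the autosomal genes of each list with the TSS in a large domain (points, percent) and its exact 95% interval (bars), with counts beside each name and the share of all autosomal coding genes as a dashed line. Olfactory and vomeronasal receptors, axon guidance genes and developmental transcription factors lie right of the line at 5.85%, and trace amine receptors, housekeeping genes, Hox genes and markers of other cell types of the epithelium at 0.

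For genes of the working olfactory neuron the counts were small. Of 25 genes of mature OSN function, 1 had its TSS in a large domain, Cnga4, which encodes a subunit of the olfactory cyclic nucleotide-gated channel and lies among 24 olfactory receptor genes on chr7:104772501-105517500 (745 kb). Regulators of receptor choice and nuclear architecture had 0 of 31 (upper exact bound 11.2%), immature OSN genes 0 of 15, progenitor and basal cell genes 0 of 18, sustentacular and gland genes 0 of 18, immune, glial and blood cell genes 0 of 18 and housekeeping genes 0 of 21. At a share of 5.85%, lists of this size would hold about 1 or 2 genes, so counts of 0 are not low beside it. Among larger families the counts were 0 of 78 mitochondrial ribosomal protein genes (upper bound 4.62%), 2 of 77 cytosolic ones, 0 of 60 serpins and 8 of 358 solute carriers (2.23%, upper bound 4.36%). Hox genes had 0 of 39, keratins 0 of 53, proteasome subunits 0 of 39, potassium channels 4 of 91, defensins 2 of 64 and Zfp zinc finger genes 22 of 385.

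The boundaries at the ends of large domains come from the same map as the rule, so their strengths are given as a description. The 339 domains had 649 boundaries at their ends, 29 of them between 2 large domains. Of the 649, 302 were Strong (46.5%, 95% exact interval 42.6 to 50.5%), against 52.4% of the 6958 other autosomal boundaries and 51.9% of all. Their median strength was 0.450, with quartiles of 0.282 and 0.867, against 0.528 in others, with quartiles of 0.303 and 0.954. Scores of 2 or more were held by 33 of them (5.08%), against 3.49% of others, and scores under 0.3 by 29.1%, against 24.2%. A Strong boundary stood at both ends of 68 domains (20.1%), at 1 end of 179 and at neither end of 92, and 27.5% of other intervals had one at both ends. Weaker ends were shared with the next shorter intervals. Of the 1168 boundaries at the ends of intervals of 500 to 700 kb and of no large domain, 46.1% were Strong, with a median strength of 0.457. The mean of both flanks was lower than in other intervals on 14 of 19 autosomes. By class, its median was 0.787 for the receptor class, 0.730 for domains with 10 or more TSSs and 0.669 for those with few genes. It was 0.487 for those with 1 long gene and 0.426 for those with no coding gene.

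Start sites and CTCF motifs were scarcer at these boundaries than at all others, though not much scarcer than at the ends of intervals of 500 to 700 kb. A coding TSS lay within 20 kb of 17.7% of them (115 of 649, 95% exact interval 14.9 to 20.9%), against 37.9% of other autosomal boundaries and 36.2% of all. Within the Strong class the shares were 26.8% and 46.6%, and within the Weak class 9.80% and 28.3%, so the difference was present within each class. A CTCF core match lay within 20 kb of 12.8% of them and 21.8% of others (21.0% of all). At the 1168 ends of intervals of 500 to 700 kb the shares were 19.9% with a TSS (17.6 to 22.3%) and 14.4% with a match (12.4 to 16.5%), whose exact intervals overlap those of the large domains. One side of each of these boundaries lies in a gene-poor domain, and the 20 kb window takes in both sides. The part of this in the difference was not tested.

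**Figure D5:**
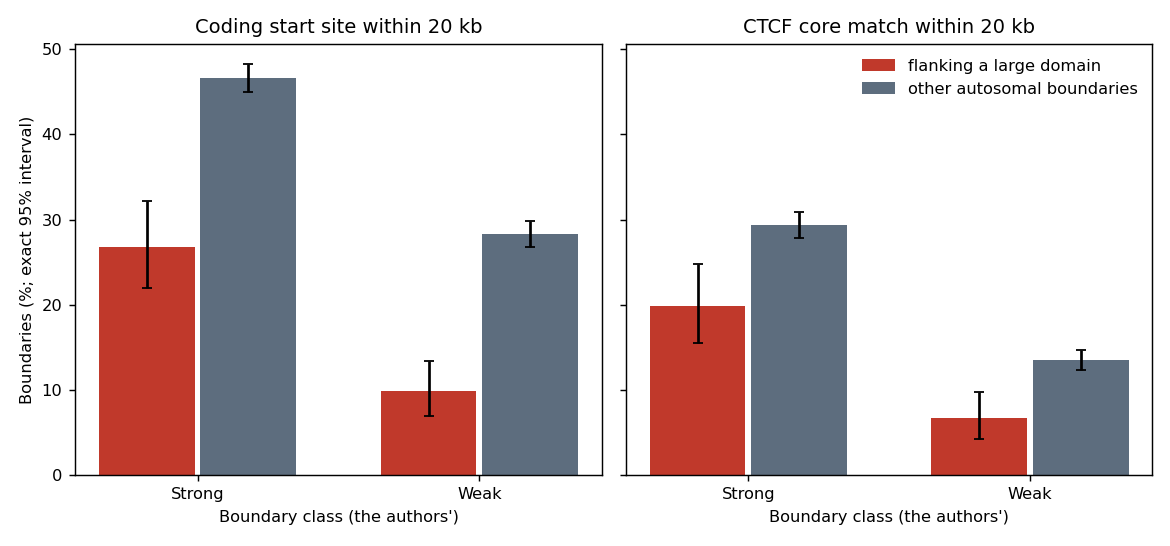
Share of boundaries with a coding TSS (left) or a CTCF core match (right) within 20 kb, by the authors' class, for boundaries at the ends of large domains (red) and other autosomal boundaries (grey), with exact 95% intervals. Within the Strong class 26.8% and 46.6% had a TSS nearby, and within the Weak class 9.80% and 28.3%.

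Motif direction at the ends was mixed. Around the 620 boundaries with a large domain on 1 side, 54 matches within 20 kb pointed into the large domain and 39 pointed out of it (58.1%, 95% exact interval 47.4 to 68.2%, which holds 50%). Within 50 kb the counts were 103 and 91. No large domain had a match pointing inward within 20 kb of both ends, 0 of 339, the arrangement known for pairs of CTCF sites at the feet of loops (upper exact bound 1.08%). The arrangement was rare everywhere, in 6 of 668 intervals of 500 to 700 kb (0.898%, 95% exact interval 0.330 to 1.94%) and in 127 of the 7216 other intervals (1.76%), and the interval for large domains overlaps that of 500 to 700 kb. Inside the domains, the matches numbered 412, or 1.29 per Mb of pooled length, against 2.87 per Mb in other intervals and 2.03 per Mb in those of 300 to 700 kb. Intervals of 500 to 700 kb alone held 1.29 per Mb, the same density. The arrays on chromosomes 14 and 5 described at the start contributed 24 and 23 of the 412.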

How the data were processed

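Per the labels, in situ Hi-C was made from 2 biological replicates of 1 group. The authors deposited a boundary list called on the map pooled from both, on GRCm38 per the series text, with a strength score whose scale is not stated. The sources used here give neither caller, mapper nor depth. From the values, scores began at 0.200 and Strong at 0.500. Each strength printed is the authors' value and was set only against others of this list.

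Intervals ran between midpoints of adjacent boundaries, and 16 of 355 autosomal spacings of 700 kb or more were left out for undetermined bases. Bases and soft-masking came from the GRCm38.p6 reference, genes from GENCODE mouse release 21 (TSS: 5′ end of the gene record). Words of 50 bases were sampled 1 in 16. Python 3.11.15, numpy 2.4.6, pandas 2.3.3 and scipy 1.17.1 were used, and the measures were tested on simulated data with planted values. Samples formed 1 group, so comparisons are between intervals of 1 map, which are no replicates, and no p-value was computed. Intervals of shares are exact Clopper-Pearson and those of medians come from order statistics.

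The domains, gene lists and alternatives were chosen with earlier results of these data known. Genes named by rule were the coding gene covering most of each of the 10 longest domains, up to 3 per written list in the longest domains, the covering gene of up to 15 domains with 1 long gene, and the receptor families of receptor domains. Of the genes that this rule takes from the written lists, 1 is not reported here. The alternatives were other spacing limits, comparison intervals, windows, motif and gene definitions, pooling over length, trimmed ends, Strong boundaries only, chromosome X and, added after the data were seen, a limit on repeated words and a comparison with intervals of 500 to 700 kb.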

Additional observations from a re-analysis of the deposited data

How the results depend on the processing

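Differences are large domains minus other intervals. Of the alternative values of the summary results, 58 stayed within the limits set for them, 35 moved and 9 changed sign. The TSS density, -5.09 per Mb as reported, was -4.96 at 1000 kb or more, -1.65 against intervals of 300 to 700 kb, -2.10 without 50 kb at each end, -5.50 pooled, -4.94 without receptor domains, -4.88 with chromosome X, -6.88 with at most 10% repeated words and -9.78 per Mb over all genes. The share without a coding TSS turned to -2.19 points at 1000 kb or more and -4.13 without the ends, and was 0.669 against 300 to 700 kb, so its direction depends on these choices. The share inside genes was -21.5 points against 300 to 700 kb and -18.01 pooled. GC content was -2.0 points against 300 to 700 kb and -2.49 pooled. The soft-masked share was 7.24 points at 1000 kb or more and 1.49 with at most 10% repeated words. The CpG ratio was -0.0228 against 300 to 700 kb, -0.0376 without the ends, -0.0332 pooled and -0.0480 with at most 10% repeated words. The median of CTCF matches per Mb was 0.847 higher in large domains than in other intervals, whose median was 0 because most short intervals hold none. It turned to -0.612 against 300 to 700 kb, -1.57 pooled, -1.70 with at most 10% repeated words and -10.1 with 1 mismatch. DpnII sites differed by 0.0501 per kb at 1000 kb or more, 0.0492 pooled and 0.00210 with at most 10% repeated words. Flank sides of class Strong differed by -11.3 points with at most 10% repeated words. The TSS share at flanks differed by -25.6 points within 50 kb. Against intervals of 500 to 700 kb, a comparison chosen after seeing the data, the TSS density was -0.52 per Mb, the share inside genes -8.27 points, GC content -0.74 points, the soft-masked share 2.72 points, the CpG ratio -0.0073 and the shares at flanks -2.14 points with a TSS and -1.59 with a CTCF match. In that comparison the share without a coding TSS turned to -5.43 points, the flank strength to 0.0011 and the flank sides of class Strong to 1.40 points. The number of domains was 910 with Strong boundaries only, 596 at 600 kb, 81 at 1000 kb and 171 with at most 10% repeated words.

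No paired analysis was possible because boundaries were called after both replicates had been pooled, and for the same reason no replicate was left out. Contact depth is unknown here and limits which weak boundaries were called, so the domains are stretches in which none was called. Whether structural differences between 129P2/OlaHsd and the reference affect the duplicated arrays was not tested.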

Other observations

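On chromosome X, 20 intervals met the same limits on spacing and undetermined bases. The longest, chrX:147627501-150477500, measured 2850 kb, held 14 coding TSSs and 14 CTCF core matches and had 78.2% repeated words. In another, of 905 kb, Il1rapl1, a synaptic adhesion gene, covered 80.8% of the length. It was chosen after its values were seen.

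Among the 16 autosomal spacings left out for undetermined bases, chr14:41047501-44947500 measured 3900 kb with 80 coding TSSs and 71.2% repeated words. Another, chr2:174712501-178107500, measured 3395 kb with 46 coding TSSs and 80.4% repeated words. The interval chr8:18982501-21942500 (2960 kb) held 60 coding TSSs, and chr4:59957501-62272500 (2315 kb) held 24, with Mup6, a major urinary protein gene, covering the most.

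A pair of domains rich in long intergenic RNA genes, chosen after their values were seen, had little repeated sequence. The domain chr13:43752501-44727500 (975 kb) held 17 long intergenic RNA genes with 3.31% repeated words, and chr7:70372501-71462500 (1090 kb) held 12 with 4.42%. The second followed directly on the domain of Nr2f2. Other domains rich in such genes were highly repeated. The domain chr13:65127501-67037500 held 20 with 67.3% repeated words, and chr5:10612501-12062500 held 14 with 69.9%.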
